A study of Mus musculus with 20 samples.

Results

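The regional comparison described here was between the hippocampus and the neocortex of mice without miR-324, and it used 10 of the 20 samples of the series, chosen by their labels: the 5 hippocampus samples and the 5 neocortex samples of the Mir324-null genotype. These mice carry a global deletion of the *Mir324* locus, made with CRISPR/Cas9 in zygotes of mixed C57BL/6 and CBA/ca background and then backcrossed, and the labels give the strain as C57BL/6J. The other 10 samples are the same tissues of wild-type (WT) mice, 5 of each. The paper describes WT and miR-324-null lines derived by crossing heterozygous animals, and does not say that the mice sampled were littermates. All mice were male and 13.5 months old. The null allele is present in every cell of the animal, so a difference between the 2 regions cannot be tied to loss of the miRNA in one of them. The labels call the neocortex samples cerebral cortex, and do not say whether samples of the same number came from the same mouse. Numbers 1 to 5 are used below only to name samples.

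*Mir324* encodes 2 mature miRNAs, one from each arm of its hairpin, and neither is measured by these mRNA libraries. They are shown because their absence defines the samples. The sequences are from RefSeq, on the plus strand of GRCm38.p6, in the order chr11:70012060-70012082 and chr11:70012095-70012114, and the capitals mark the seed, bases 2 to 8, with which a miRNA recognises most of its targets.
mmu-miR-324-5p: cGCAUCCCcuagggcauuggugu
mmu-miR-324-3p: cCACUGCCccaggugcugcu
The 2 seeds differ.

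As background, the hippocampus is built from the pyramidal cell fields CA1, CA2 and CA3 and the granule cells of the dentate gyrus, and its principal cells receive strong input from the entorhinal cortex. The neocortex is built from layers of pyramidal cells that project within the cortex (upper layers), to the brainstem and striatum (layer 5) or to the thalamus (layer 6). Each of these cell types transcribes its own set of receptor subunits, channels and transcription factors, and tissue cut out by hand can carry along pieces of the structures beside it, such as the striatum under the neocortex or the choroid plexus beside the hippocampus.

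Depth, as the sum of estimated counts, ran from 12755735 to 16239257 in the hippocampus samples without miR-324 and from 13691038 to 19617765 in their neocortex counterparts. Levels are given as CPM, counts scaled to library size with TMM, a scale on which samples can be compared, and differences as the log2 fold change of hippocampus over neocortex from edgeR's quasi-likelihood test. A gene was called at a Benjamini-Hochberg adjusted p at or under 0.05. Of 15033 genes tested, 2076 (13.8%) were higher and 2049 (13.6%) were lower in the hippocampus, 4125 in all (27.4%). With an added minimum of 2-fold, 317 (2.11%) were higher and 435 (2.89%) lower, 752 in all (5.00%). The median log2 fold change of all genes tested was 0.01. In 3175 genes (21.1%) the 5 hippocampus values did not overlap the 5 neocortex values, and 3030 of these were called. Since these are bulk tissue samples, fewer cells of a type and less RNA per cell cannot be told apart in any of the values that follow.

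The genes that stood highest in the hippocampus over the neocortex without miR-324 were *Slc9a4*, *Dsp*, *Lhx9*, *Lct*, *Spink8*, *Fibcd1*, *Krt2*, *C1ql2* and *Popdc3*. They were 9 of the 10 with the largest log2 fold change among called genes whose 2 groups did not overlap and that reached a mean of 5 CPM in the higher region. *Slc9a4*, a sodium-proton exchanger encoded at GRCm38 chr1:40580081-40630725, stood at 28.1, 26.9, 12.9, 19.4 and 22.5 CPM in miR-324-null hippocampus 1 to 5 and at 1.39, 0.858, 0.297, 1.65 and 0.38 CPM in neocortex 1 to 5. The lowest hippocampus sample, the third, stood far above the highest neocortex sample, and the log2 fold change was 4.60 (SE 0.35, adjusted p = 2.38e-06). *Fibcd1*, a fibrinogen-domain membrane receptor of CA1 cells, was the most abundant of the 9 by CPM, at 223, 225, 138, 125 and 143 in hippocampus and 15.6, 13.3, 10.3, 23.2 and 7.87 in neocortex, with a log2 fold change of 3.61 (SE 0.28, adjusted p = 2.72e-06). Hippocampus 1 and 2 were the high samples for this gene. *Lhx9*, a LIM homeobox transcription factor, showed 21.6, 21.4, 10.7, 13.1 and 21.5 CPM in hippocampus and 1.98, 0.959, 0.653, 1.76 and 0.271 in neocortex. It was again highest in hippocampus 1 and 2, together with hippocampus 5. The log2 fold changes of the remaining 6 genes lay between 3.44 for *Popdc3*, a membrane protein that binds cAMP, and 4.10 for *Dsp*, the desmosomal plaque protein desmoplakin.

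The genes that stood lowest in the hippocampus were chosen by the same rule, and the 10 included 2 predicted genes, which are not described. The others were *Trbc2*, *Igfn1*, *Rspo1*, *Krt80*, *Rasgef1c*, *Myl4*, *Dkkl1* and *Abi3bp*. *Trbc2*, the constant region of a T cell receptor beta chain at chr6:41546730-41548352, stood at 1.72, 0.382, 0.369, 0.894 and 0.269 CPM in hippocampus 1 to 5 and 12.3, 11.3, 15.5, 10.9 and 17.6 CPM in neocortex 1 to 5, with a log2 fold change of -4.24 (SE 0.34, adjusted p = 3.77e-06). The highest hippocampus sample was the first, and it lay far below every neocortex sample. *Igfn1*, a protein of immunoglobulin and fibronectin domains, stood at 1.01, 2.6, 2.52, 3.5 and 2.02 CPM against 38.5, 26.4, 50.6, 57.7 and 38.7 CPM, a log2 fold change of -4.17 (SE 0.27, adjusted p = 9.06e-07). *Rspo1*, a secreted potentiator of Wnt signalling that marks upper-layer cells, was at 1.25, 0.612, 0.923, 0.968 and 0.875 CPM against 9.22, 8.89, 11, 11.3 and 17.9 CPM, with neocortex 5 highest. *Myl4*, a myosin light chain, ranged over 1.48 to 3.05 CPM in hippocampus and 16.7 to 27.9 CPM in neocortex. The remaining genes encode a keratin (*Krt80*), a Ras exchange factor (*Rasgef1c*), a dickkopf-like secreted protein (*Dkkl1*) and a matrix protein (*Abi3bp*). The log2 fold changes of the 8 genes lay between -4.24 and -3.26.

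**Figure D1:**
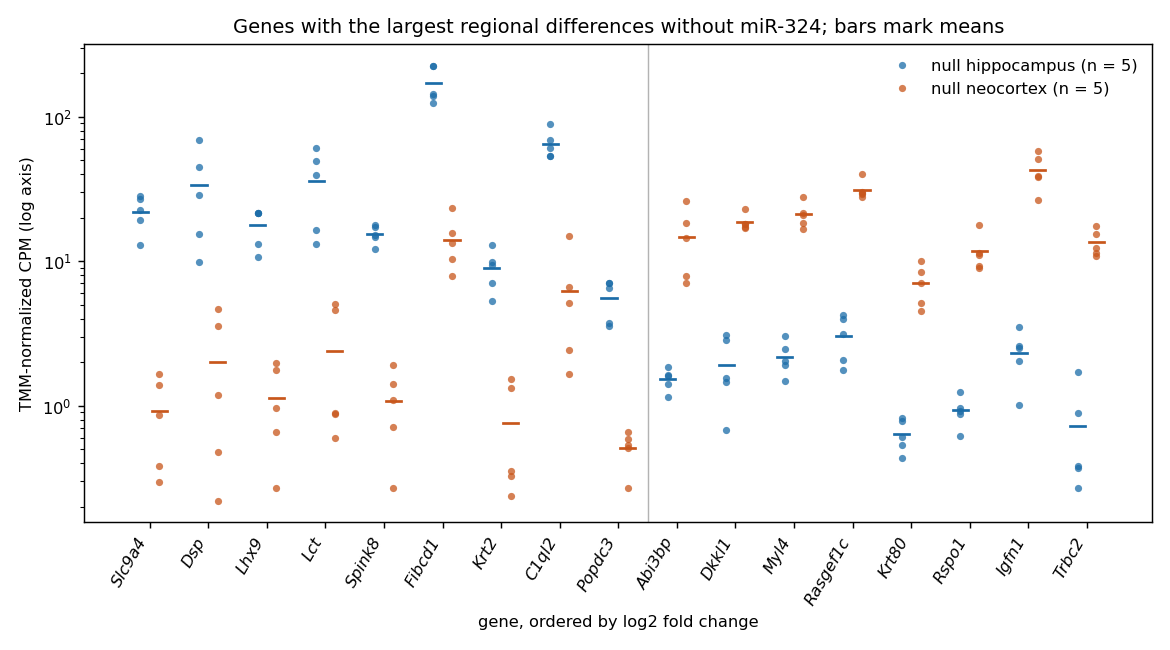
Each point is the TMM-normalized CPM of one miR-324-null sample on a log axis, in hippocampus (blue, 5 samples) and neocortex (orange, 5 samples), with the mean as a bar, for 9 of the 10 genes highest in the hippocampus by fold change (left of the line) and 8 of the 10 lowest (right). No gene shows an overlap between regions, which the choice of genes required, and among the 9 higher genes *Dsp* and *Lct* spread most within the hippocampus.

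The markers of the hippocampal fields stood higher in the hippocampus, as its label says, and they differed among the 5 hippocampus samples. Of the 6 CA1 genes, 4 were higher and 0 lower in the hippocampus, of the 7 CA2 genes 4 and 0, of the 5 CA3 genes 4 and 0, and of the 12 dentate genes 8 and 1, against 13.8% and 13.6% of all genes. Their median log2 fold changes were 1.05, 0.99, 0.91 and 1.13. For CA1 the called genes were *Fibcd1* and *Spink8*, given above, *Man1a*, a Golgi mannosidase, at 1.18 (SE 0.19, adjusted p = 0.000466), and *Pou3f1*, a POU domain transcription factor, at 0.92 (SE 0.18, adjusted p = 0.00213). For CA2 the called genes were *Ntf3*, a neurotrophin, at 2.15 (SE 0.34, adjusted p = 0.000489), *Amigo2*, a cell adhesion protein, at 1.68 (SE 0.21, adjusted p = 7.52e-05), *Necab2*, a calcium-binding protein, and *Rgs14*, a regulator of G protein signalling. For CA3 the largest difference was that of *Iyd*, an iodotyrosine deiodinase, at 1.09, 2.83, 2.58, 2.68 and 2.83 CPM in hippocampus and 0.512, 0.353, 0, 0.11 and 0.108 in neocortex, so that the lowest hippocampus sample, the first, was still above every neocortex sample. *Pdzd2*, listed with the dentate genes, was lower in the hippocampus (log2 fold change -0.77), and *Wfs1*, a classical CA1 gene of the endoplasmic reticulum, was not called. Its values were 77, 58.2, 206, 181 and 96.7 CPM in hippocampus and 153, 102, 128, 125 and 61 CPM in neocortex (log2 fold change 0.13, SE 0.33, adjusted p = 0.804). Hippocampus 3 and 4 stood above every neocortex sample and the other hippocampus samples did not.

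Within the dentate list the hippocampus samples differed several-fold among themselves. *Dsp* stood at 9.82, 15.4, 28.8, 44.5 and 68.4 CPM in hippocampus 1 to 5 and at 4.68, 3.53, 0.475, 0.22 and 1.19 CPM in neocortex 1 to 5, with a log2 fold change of 4.10 (SE 0.66, adjusted p = 0.000544). *Lct*, which encodes lactase and marks granule cells, gave 13.1, 16.5, 39.4, 49.6 and 60.5 CPM and 5.05, 4.59, 0.89, 0.879 and 0.597 CPM, and *Prox1*, the transcription factor of granule cell identity, gave 53.7, 65, 68.9, 97.1 and 134 CPM and 26.9, 27.3, 19.8, 23.8 and 17.2 CPM. All 3 genes were lowest in hippocampus 1 and next lowest in hippocampus 2, and highest in hippocampus 5. In neocortex they also did not stand at one level, since *Dsp* and *Lct* were several times higher in neocortex 1 and 2 than in the other neocortex samples. *C1ql2*, a secreted synaptic organiser of mossy fibres, stood at 53.6, 68.8, 60.3, 53.7 and 88.3 CPM in hippocampus and at 15, 5.15, 1.66, 6.59 and 2.44 CPM in neocortex, and here hippocampus 1 and 4 were the lowest of their group and hippocampus 2 was above both. *Tdo2*, a tryptophan-degrading enzyme of granule cells, had a log2 fold change of 2.94 (SE 0.33, adjusted p = 3.84e-05). The summed dentate list ran over 351, 432, 490, 601 and 808 CPM in hippocampus 1 to 5 and from 287 to 329 CPM in neocortex. Without hippocampus 1 and 2 the log2 fold change of *Dsp* was 4.60 and that of *Fibcd1* was 3.28. These samples were chosen for their low dentate sum, so a rise of *Dsp* follows from the choice.

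Most listed genes of the upper neocortical layers and of layer 6 were lower in the hippocampus. Of 9 upper-layer genes 8 were lower and 1 was higher (median log2 fold change -1.65), against 13.6% lower and 13.8% higher of all genes. *Lamp5*, a lysosome-associated membrane protein, stood at 36.3, 40, 56.3, 53.2 and 38.2 CPM in hippocampus and 189, 165, 216, 218 and 334 CPM in neocortex, with sample 5 the highest and a log2 fold change of -2.31 (SE 0.19, adjusted p = 4.19e-06). *Otof*, which encodes otoferlin, and *Cux2*, a homeobox transcription factor, had log2 fold changes of -2.20 and -1.66, and *Stard8*, a lipid transfer domain protein, of -1.65. The gene that went the other way was *Scnn1a*, an epithelial sodium channel subunit used as a layer 4 marker, at 7.95, 8.33, 8.43, 11.9 and 13.6 CPM against 7.25, 5.76, 4.51, 5.66 and 5.1 CPM (log2 fold change 0.84, SE 0.18, adjusted p = 0.00331). Of 11 layer 6 genes 7 were lower and 1 was higher (median -1.05), against the same background. *Foxp2*, a forkhead transcription factor, stood at 4.91, 2.45, 3.2, 3.5 and 2.09 CPM against 17.3, 17.9, 28.3, 19.8 and 24.1 CPM (log2 fold change -2.73, SE 0.21, adjusted p = 2.9e-06), and *Tbr1*, a T-box transcription factor, at 33.8, 31.1, 62.2, 58.5 and 39.9 CPM against 127, 125, 127, 124 and 179 CPM. *Tbr1* was highest in samples 3 and 4 within the hippocampus and in sample 5 within the neocortex. *Syt6*, a synaptotagmin, had a log2 fold change of -1.91. *Hs3st4*, a heparan sulfate sulfotransferase, was the layer 6 gene that was higher in the hippocampus, by 0.84.

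Of 9 layer 5 genes 5 were higher in the hippocampus and 2 lower (median 0.33), where all genes gave 13.8% and 13.6%. *Crym*, a thyroid hormone-binding protein, was at 291, 306, 139, 152 and 164 CPM in hippocampus and 53.7, 40, 57.8, 54 and 34 CPM in neocortex, with a log2 fold change of 2.14 (SE 0.24, adjusted p = 4.06e-05). Hippocampus 1 and 2 stood well above the other 3 hippocampus samples. *Bcl11b*, a zinc finger transcription factor of subcerebral projection neurons and also of dentate and CA1 cells, was at 101, 98.9, 134, 124 and 136 CPM against 76.1, 71.5, 75.4, 74.7 and 54.7 CPM. The neocortex was lowest in sample 5. *Bcl6*, a transcriptional repressor, had a log2 fold change of 0.73, and *Deptor*, an inhibitor of mTOR, was one of the 2 lower genes, at -1.22.

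Among the subunits of the AMPA receptor, the receptor of fast glutamatergic transmission, 7 of 17 pore-forming and auxiliary genes were higher and 7 lower in the hippocampus, with a median of -0.13. Of all genes tested 13.8% were higher and 13.6% lower, which is the background for this and the following receptor lists. *Gria1* (chr11:57011387-57330244) stood at 882, 899, 912, 969 and 1010 CPM in hippocampus 1 to 5 and at 381, 379, 342, 373 and 275 CPM in neocortex 1 to 5, and its log2 fold change was 1.43 (SE 0.09, adjusted p = 6.04e-07). No neocortex sample came near the lowest hippocampus sample. *Gria3* and *Gria4* were lower in the hippocampus, at log2 fold changes of -0.43 and -0.75, with no overlap. *Gria2*, whose subunit sets the calcium permeability of the receptor, was higher, at 0.26 (SE 0.08, adjusted p = 0.0271), but its groups overlapped, and it was not called without hippocampus 4, hippocampus 5, neocortex 1 or neocortex 2 (adjusted p = 0.072, 0.063, 0.0666 and 0.0515), nor with a transcript-length offset (adjusted p = 0.177). Per length, *Gria1* made up 50.2% ± 2.43 (SD, n = 5) of the summed TPM of the 4 pore subunits in hippocampus and 26.3% ± 2.77 (SD, n = 5) in neocortex, while *Gria2* made up 34.6% and 42.5%, *Gria3* 10.9% and 20.7%, and *Gria4* 4.36% and 10.5%. In TPM, *Gria1* was thus the first of the 4 in hippocampus and *Gria2* the first in neocortex.

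The auxiliary subunits moved in both directions. *Shisa6*, which prolongs AMPA receptor currents, had the largest difference of the 17 genes of this list, 152, 165, 147, 170 and 199 CPM against 25.8, 27.8, 14.7, 26.5 and 17 CPM, a log2 fold change of 2.91 (SE 0.17, adjusted p = 4.17e-07). *Cnih2*, a cornichon that aids receptor export and slows its gating, stood at 373, 381, 298, 288 and 346 CPM against 146, 124, 123, 114 and 117 CPM (log2 fold change 1.44, SE 0.10, adjusted p = 1.11e-06). *Cacng8*, the TARP of hippocampal synapses, was also higher, at 0.82, whereas the TARP *Cacng3* and the claudin-like *Gsg1l* were lower, at -0.83 and -1.17. The 2 groups did not overlap for any of these 5 genes. Within the neocortex, the values of *Shisa6* were highest in samples 1, 2 and 4.

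Other glutamate receptor families were counted in the same way. For NMDA receptors, 1 of 6 tested genes was called, *Grin2a*, at 255, 257, 311, 335 and 330 CPM against 180, 176, 192, 207 and 230 CPM (log2 fold change 0.60, SE 0.10, adjusted p = 0.000636). For kainate receptors, 4 of 7 were higher and 2 lower. *Grik4*, a high-affinity subunit of CA3 cells, was at 66.7, 73.6, 40.8, 58.1 and 62 CPM against 20.4, 24.9, 23, 21.7 and 21.5 CPM (log2 fold change 1.44, SE 0.13, adjusted p = 8.62e-06), and *Grik3* went the other way, at 37, 36.9, 65, 51.7 and 41.5 CPM against 94.6, 122, 114, 108 and 108 CPM (log2 fold change -1.22, SE 0.14, adjusted p = 4.71e-05). The 2 auxiliary subunits of kainate receptors were split as well, with *Neto1* higher, at 0.62, and *Neto2* lower, at -0.56. Of 7 metabotropic receptors 2 were higher and 3 lower, among them *Grm5* at 0.43, *Grm4* at -1.08 and *Grm8* at -1.30.

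**Figure D2:**
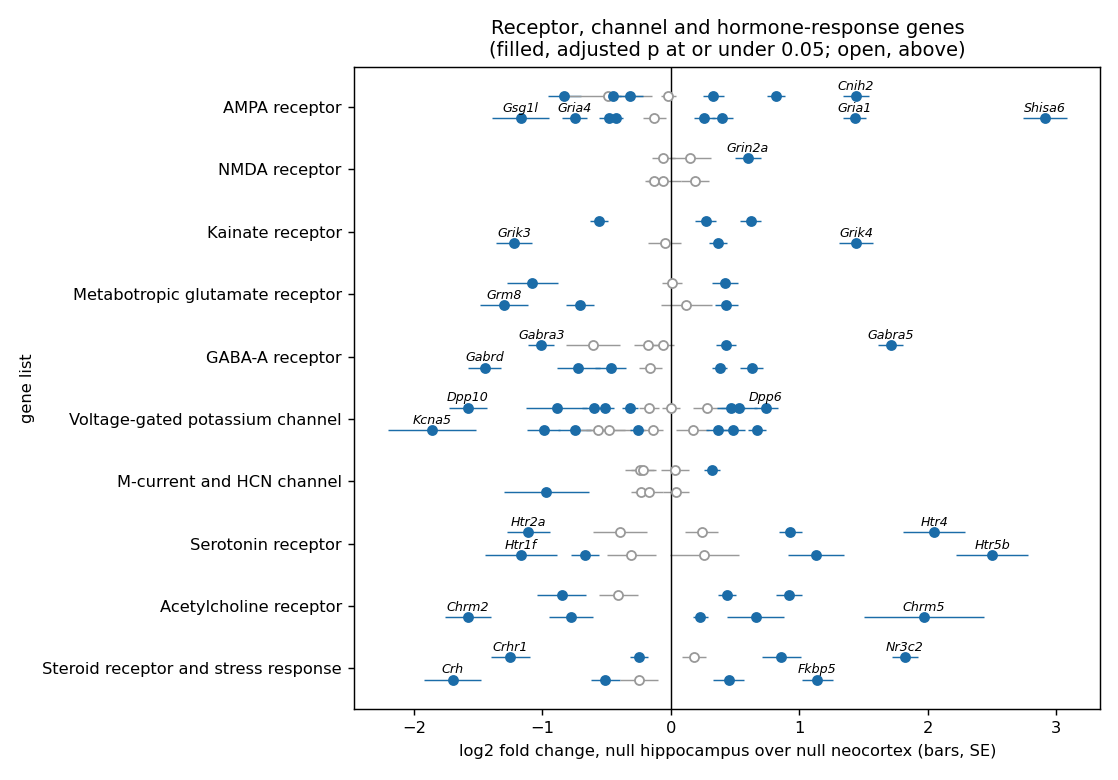
Each point is the log2 fold change of one gene, miR-324-null hippocampus over miR-324-null neocortex, with its SE as a bar, grouped by list, and filled points have an adjusted p at or under 0.05 in edgeR's test. Most lists hold called genes on both sides of 0, and *Shisa6* and *Htr5b* lie farthest to the right, at 2.91 and 2.50.

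GABA-A receptor genes, which encode the channels of fast inhibition, differed in which alpha subunit was high. Of 12 tested genes 4 were higher and 4 lower in the hippocampus, with a median of -0.17. *Gabra5*, the subunit of extrasynaptic receptors of hippocampal pyramidal cells, stood at 199, 228, 211, 203 and 215 CPM in hippocampus and 71.7, 78.4, 54.3, 64 and 56.3 CPM in neocortex (log2 fold change 1.71, SE 0.10, adjusted p = 4.17e-07). *Gabra3* was lower, at -1.01, and *Gabra2* higher, at 0.63. *Gabrd*, the delta subunit of tonic inhibition, was at 19.8, 18, 25.6, 26.4 and 25.7 CPM against 54.4, 55.5, 75.2, 57.6 and 74.7 CPM (log2 fold change -1.45, SE 0.13, adjusted p = 8.54e-06). By TPM, *Gabra5* made up 39.0% ± 4.56 (SD, n = 5) of the sum of alpha subunits 1 to 5 in hippocampus and 11.5% ± 2.42 (SD, n = 5) in neocortex.

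Of 12 markers of inhibitory interneurons 6 were lower in the hippocampus and 1 was higher, against 13.6% and 13.8% of all genes. *Vip*, a peptide of one interneuron class, stood at 11.9, 12.5, 14.9, 15.9 and 13.5 CPM against 29, 30, 27.7, 32.7 and 44.8 CPM (log2 fold change -1.25, SE 0.13, adjusted p = 2.73e-05). *Pvalb*, the calcium buffer of fast-spiking cells, was lower, at -0.91, as were *Slc32a1*, the vesicular GABA transporter, at -0.61, and *Npy*, a peptide of several interneuron classes, at -0.59. *Adarb2*, which marks interneurons of caudal origin, was the one higher, at 0.49. *Gad1*, an enzyme of GABA synthesis, differed little but did not overlap between regions, at 288, 262, 293, 308 and 277 CPM against 320, 431, 353, 330 and 318 CPM (log2 fold change -0.29, SE 0.08, adjusted p = 0.0236). Its highest value was that of neocortex 2, and without hippocampus 2 it was not called (adjusted p = 0.0599). Striatal projection neurons also make GABA, and the sums of their markers are given below for each sample. Without neocortex 1, 3 and 4, which were highest in them, the log2 fold change of *Gad1* was -0.38 (adjusted p = 0.0637, no longer called but not smaller in size) and that of *Vip* was -1.43 (adjusted p = 0.000727).

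Of 22 voltage-gated potassium channel genes 9 were lower and 6 higher in the hippocampus, with a median of -0.21, against 13.6% and 13.8% of all genes. The 9 against 6 was not tested. *Dpp10*, an auxiliary subunit of A-type Kv4 channels, was at 44.3, 50.7, 63.9, 59.5 and 31.8 CPM against 145, 147, 151, 158 and 150 CPM (log2 fold change -1.58, SE 0.15, adjusted p = 9.16e-06), while its relative *Dpp6* was higher, at 0.74. *Kcna2*, a Kv1 subunit of axons, was lower, at -0.75. *Kcnab2*, a Kv beta subunit, was higher, at 0.67. *Kcnd2*, the main Kv4 pore subunit of pyramidal cell dendrites, was not called, at 86, 92.8, 135, 128 and 115 CPM against 86.1, 98, 94.5, 91.8 and 91.2 CPM (log2 fold change 0.28, SE 0.11, adjusted p = 0.0816). Hippocampus 3 to 5 lay above every neocortex sample and hippocampus 1 and 2 did not, and without hippocampus 1 or 2 it was called (adjusted p = 0.0167 and 0.0438). Of the 8 genes of the M-current and of HCN channels, 1 was higher and 1 lower, shares close to the 13.8% and 13.6% of all genes. The lower one was the pacemaker channel gene *Hcn4* at -0.97 (adjusted p = 0.0435). The call of *Hcn4* held without hippocampus 3 or neocortex 5, while leaving out any other single sample gave an adjusted p from 0.059 to 0.103.

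Receptors of serotonin and acetylcholine, transmitters that both regions receive from nuclei of the brainstem and basal forebrain, differed between the regions in most members. Of 11 serotonin receptor genes 4 were higher and 3 lower. *Htr4* stood at 10.1, 10.4, 9.96, 9.98 and 13.1 CPM against 3.22, 1.57, 2.85, 4.01 and 1.41 CPM (log2 fold change 2.05, SE 0.24, adjusted p = 5.39e-05), *Htr5b* was higher, at 2.50, *Htr3a*, the ion channel of the family, at 1.13, and *Htr1a* at 0.93. *Htr2a*, a cortical receptor, was at 10.7, 13.1, 15.3, 14.7 and 11.1 CPM against 19.2, 27.2, 37.2, 23.7 and 33.4 CPM (log2 fold change -1.11, SE 0.17, adjusted p = 0.000407), and *Htr1f* was lower, at -1.17. Of 9 acetylcholine receptor genes 5 were higher and 3 lower, with *Chrm5* at 1.97 and *Chrna7* at 0.92 on one side, and *Chrm2* at -1.58 and *Chrna4* at -0.85 on the other. *Chrm2* ranged over 5.59 to 8.12 CPM in hippocampus and 15.4 to 26.8 CPM in neocortex.

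Of 10 genes of the corticosteroid response 4 were higher and 4 lower in the hippocampus, against 13.8% and 13.6% of all genes. *Nr3c2*, the mineralocorticoid receptor, stood at 135, 146, 174, 161 and 166 CPM in hippocampus and 50.4, 48, 45.2, 45.4 and 34.6 CPM in neocortex (log2 fold change 1.82, SE 0.10, adjusted p = 4.17e-07), and the glucocorticoid receptor *Nr3c1* was lower, at 65.9, 66.4, 97.4, 92.7 and 80.4 CPM against 104, 116, 108, 115 and 133 CPM (log2 fold change -0.51, SE 0.11, adjusted p = 0.00507). *Fkbp5*, a co-chaperone that both receptors induce, was higher, at 1.14, as was *Hsd11b1*, which regenerates active corticosterone, at 0.86. The releasing hormone *Crh* and its receptor *Crhr1* were lower, at -1.70 and -1.25.

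Of 15 genes that neuronal activity induces, 2 were higher and 4 lower in the hippocampus, with a median of -0.72. The share higher was close to the 13.8% of all genes, and 13.6% of all genes were lower. *Nr4a3*, an orphan nuclear receptor, was at 93.8, 96.8, 71.8, 80.1 and 92.7 CPM in hippocampus and 20.6, 17.6, 16.1, 21.7 and 23.3 CPM in neocortex (log2 fold change 2.14, SE 0.11, adjusted p = 4.17e-07). *Egr1*, a zinc finger factor, was at 79.5, 78, 188, 99 and 112 CPM against 176, 258, 294, 172 and 352 CPM (log2 fold change -1.16, SE 0.26, adjusted p = 0.00503), and its groups overlapped through hippocampus 3. *Homer1*, a postsynaptic scaffold with an activity-induced short form, was at 84.6, 81, 88.9, 98.2 and 101 CPM against 129, 126, 141, 183 and 337 CPM (log2 fold change -1.0, SE 0.24, adjusted p = 0.00736), where neocortex 5 stood far above the rest. *Egr3* was also lower in the hippocampus, at -0.73, and also highest in neocortex 5. Without hippocampus 1 and 2, in an edgeR fit with fewer samples, *Homer1* and *Egr3* were no longer called. Their log2 fold changes were then -0.92 (adjusted p = 0.0557) and -0.59 (adjusted p = 0.0907). Of 14 tested neuropeptide precursors 8 were lower in the hippocampus and 0 higher, led by *Penk* (enkephalins), *Cartpt* and *Crh* at -2.12, -2.04 and -1.70, where 13.6% of all genes were lower. Without neocortex 1, 3 and 4, the samples highest in striatal markers, 4 were lower and 1 higher, and the median went from -0.87 to -0.58. *Penk* and *Tac1* (substance P), at -1.30, are also in the striatum list, and their values are taken up there.

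The 3 lists of microglial and oligodendroglial markers held no called gene. None of 12 microglial, 12 mature oligodendrocyte and 8 oligodendrocyte precursor genes was called in edgeR's test, against 27.4% of all genes. Of these 32 genes 3 had an unadjusted p under 0.05, and DESeq2 called 0. Of 12 astrocyte genes 1 was higher and 1 lower, where 13.8% and 13.6% of all genes were. *Gfap*, the intermediate filament of astrocytes, stood at 355, 412, 414, 403 and 387 CPM in hippocampus and 131, 163, 105, 131 and 65.9 CPM in neocortex (log2 fold change 1.74, SE 0.18, adjusted p = 2.21e-05), and *Aldh1l1*, a folate enzyme of astrocytes, was lower, at -0.37. Of 11 endothelial and pericyte genes 1 was lower (*Abcb1a*, an efflux transporter, at -0.36), against 13.6% of all genes, and this call was lost with a transcript-length offset (log2 fold change -0.21, adjusted p = 0.0584). Of 8 meningeal genes 3 were higher, where 13.8% of all genes were. They were led by *Dcn*, the proteoglycan decorin, at 65, 105, 49.1, 32.4 and 44.8 CPM against 12.3, 12.3, 5.46, 22.5 and 3.58 CPM (log2 fold change 2.41, SE 0.43, adjusted p = 0.00113). Hippocampus 5 had the highest sum of the meningeal list (240 CPM). Without this sample 1 meningeal gene was higher, and the median log2 fold change of the list went from 0.27 to -0.02. Of 8 pan-neuronal genes 3 were lower, against 13.6% of all genes, among them *Snap25*, a protein of vesicle fusion, at -0.36, and *Tubb3*, a neuronal tubulin, at -0.35. Of 13 mRNAs of the mitochondrial genome 2 were higher and 0 lower, and the share higher was close to the 13.8% of all genes.

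Among 19 genes that the study followed in its genotype comparison, 3 were higher and 3 lower between the regions of the miR-324-null mice, shares close to the 13.8% and 13.6% of all genes. The study chose genes of this list on these same samples, so its counts are not independent evidence. *Gpc1*, a glypican of the cell surface, stood at 121, 157, 131, 130 and 134 CPM in hippocampus and 78.5, 84.8, 86.4, 73 and 79.7 CPM in neocortex (log2 fold change 0.75, SE 0.07, adjusted p = 1.35e-05), *Gria1* has been given above, and *Mrpl10*, a mitochondrial ribosomal protein, was higher, at 0.37. *Mllt6*, a chromatin protein, and *App*, the amyloid precursor protein, were lower, at -0.29 and -0.18, and *Gad1* was the third. The call of *App* was lost without neocortex 3 (adjusted p = 0.0519) and without a filter on low counts (adjusted p = 0.0567), and with a transcript-length offset its log2 fold change was -0.02 (adjusted p = 0.836).

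Markers of structures that border the dissected tissue were spread unevenly over the samples, and some regional differences changed when the samples high in them were left out. Striatal projection neuron markers summed to 408, 388, 398, 388 and 411 CPM in miR-324-null hippocampus 1 to 5 and to 854, 698, 1396, 1014 and 590 CPM in neocortex 1 to 5. The 2 ranges did not overlap, and the sum was highest in neocortex 3 and lowest in neocortex 5. The same list summed to 437, 933, 555, 483 and 485 CPM in the WT neocortex samples. All 14 tested genes of the list were lower in the miR-324-null hippocampus (median log2 fold change -1.97), against 13.6% of all genes. *Adora2a*, the adenosine receptor of indirect pathway neurons, gave 3.43, 2.45, 1.66, 1.79 and 2.69 CPM against 21.9, 10.8, 35.6, 25.6 and 9 CPM (log2 fold change -3.09, SE 0.39, adjusted p = 8.61e-05), and *Drd2*, the dopamine receptor of the same cells, 3.59, 3.59, 2.52, 2.9 and 2.96 CPM against 11.4, 10.9, 28.1, 16.6 and 5.21 CPM (log2 fold change -2.21, SE 0.37, adjusted p = 0.000751). *Drd1*, the dopamine receptor of the direct pathway, was at -1.96 (SE 0.29, adjusted p = 0.000271). Neocortex 3 was highest for *Adora2a* and *Drd2*.

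When neocortex 1, 3 and 4, the samples above 800 CPM for the striatum list, were left out, an alternative chosen after the values were seen, 8 striatal genes were lower and the median became -1.22. The samples were chosen by the sum of this list, so a move of its own genes towards 0 follows from the choice. *Drd2* went to -1.36, *Rgs9*, a regulator of dopamine signalling, from -2.23 to -1.35, *Penk* to -1.15, and *Tac1* to -0.50 (adjusted p = 0.147, no longer called). *Pde10a*, a striatal phosphodiesterase, went from -0.92 to -0.42 (adjusted p = 0.107). The low-abundance potassium channel *Kcna5* followed the same samples, at 1.01, 1.07, 1.78, 0.894 and 1.35 CPM in hippocampus and 4.54, 3.18, 8.55, 4.06 and 2.33 CPM in neocortex, with a log2 fold change of -1.86 that became -1.15. With these 3 samples out, 1979 of the 4125 calls and 594 of the 752 calls past 2-fold were kept, in a fit with 7 samples. Among genes outside the list, *Gria1* went from 1.43 to 1.53, *Nr3c2* from 1.82 to 1.93, *Gabra5* from 1.71 to 1.66, *Lamp5* from -2.31 to -2.47 and *Rspo1* from -3.64 to -3.84, and all 5 were still called. Of the genes named in the text 18 were no longer called, in a fit with fewer samples. *Cartpt* went from -2.04 to -1.37 (adjusted p = 0.0839) and *Gsg1l* from -1.17 to -1.03 (adjusted p = 0.0558). For *Gad1*, *App*, *Gria2* and *Abcb1a* the call was lost while the log2 fold change, at -0.38, -0.22, 0.26 and -0.43, did not become smaller in size. The part of striatal tissue in the other calls was not tested.

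Choroid plexus markers were high in one sample of each region. Their sum was 206, 215, 137, 154 and 4072 CPM in miR-324-null hippocampus 1 to 5 and 154, 942, 137, 159 and 105 CPM in neocortex 1 to 5. *Ttr*, the thyroid hormone carrier secreted by the choroid plexus, stood at 88, 110, 25.8, 33.7 and 3753 CPM in hippocampus and 50.8, 758, 24.9, 48.8 and 17.3 CPM in neocortex, and was not called (log2 fold change 2.16, SE 1.45, adjusted p = 0.301). Without hippocampus 5 its log2 fold change was -1.48. *Kl*, which encodes klotho, a co-receptor for a hormone of phosphate balance that is made in the choroid plexus, was the one called gene of the 11 tested, where 13.8% of all genes were higher, at 16.5, 18, 17.2, 19.9 and 71.8 CPM against 7.47, 23.1, 3.98, 4.06 and 2.77 CPM (log2 fold change 1.79, SE 0.59, adjusted p = 0.0405). Leaving out hippocampus 5, or neocortex 1, 3, 4 or 5, ended its call (log2 fold changes of 1.11, 1.76, 1.61, 1.61 and 1.56, adjusted p = 0.131, 0.0763, 0.0916, 0.0917 and 0.08). Without hippocampus 5 and neocortex 2, another alternative chosen after the values were seen, *Kl* stood at 2.0 (adjusted p = 0.000221), and 3007 of the 4125 calls and 654 of the 752 past 2-fold were kept. These samples were chosen by the sum of a list that holds *Kl*, and were the highest of their region for it. A smaller spread of *Kl* follows from the choice, so this adjusted p adds no support to its call. Of 9 thalamic markers 3 were lower in the hippocampus and 0 higher, against 13.6% and 13.8% of all genes. Without neocortex 1, 3 and 4, in a fit with fewer samples, 1 was lower, and the list median went from -0.4 to -0.48. In WT 3 thalamic markers were higher in the hippocampus and 2 lower, with a median of 0.11.

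**Figure D3:**
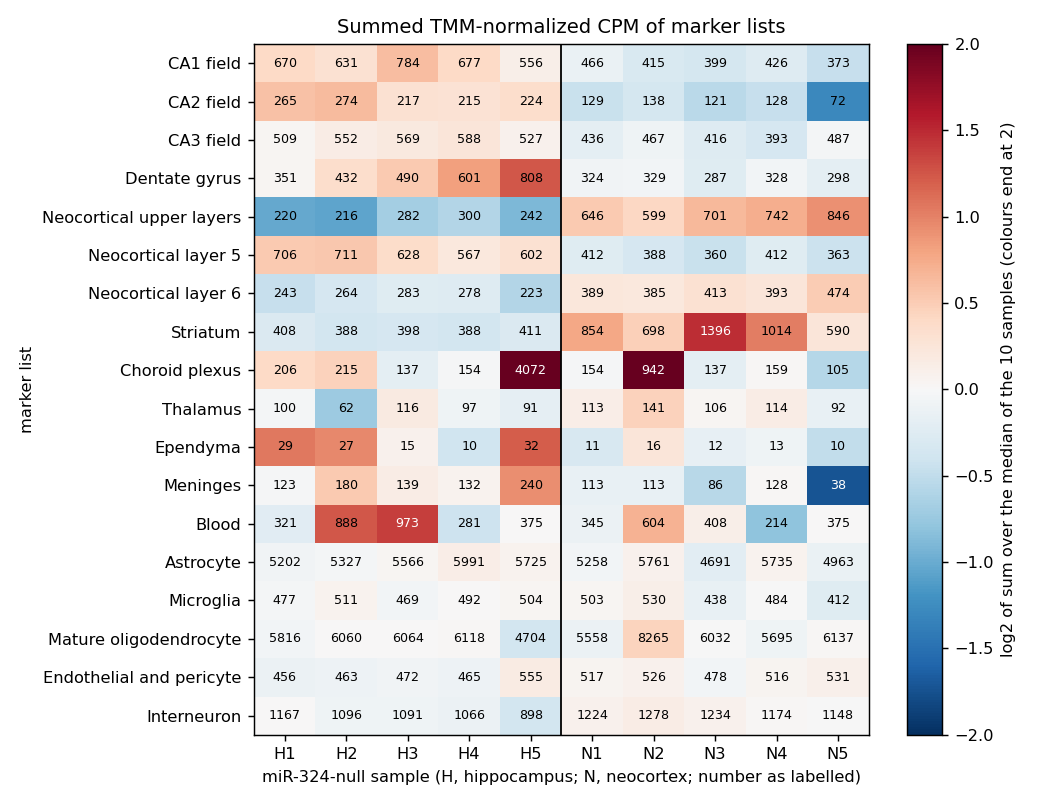
Each cell gives the summed TMM-normalized CPM of a marker list (rows) in one miR-324-null sample (columns, hippocampus 1 to 5 then neocortex 1 to 5), coloured by the log2 of its ratio to the median of the 10 samples. The choroid plexus list stands at 4072 CPM in hippocampus 5 and 942 CPM in neocortex 2, the striatum list is high in neocortex 3 (1396 CPM), and the dentate list runs from 351 to 808 CPM within the hippocampus.

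**Figure D4:**
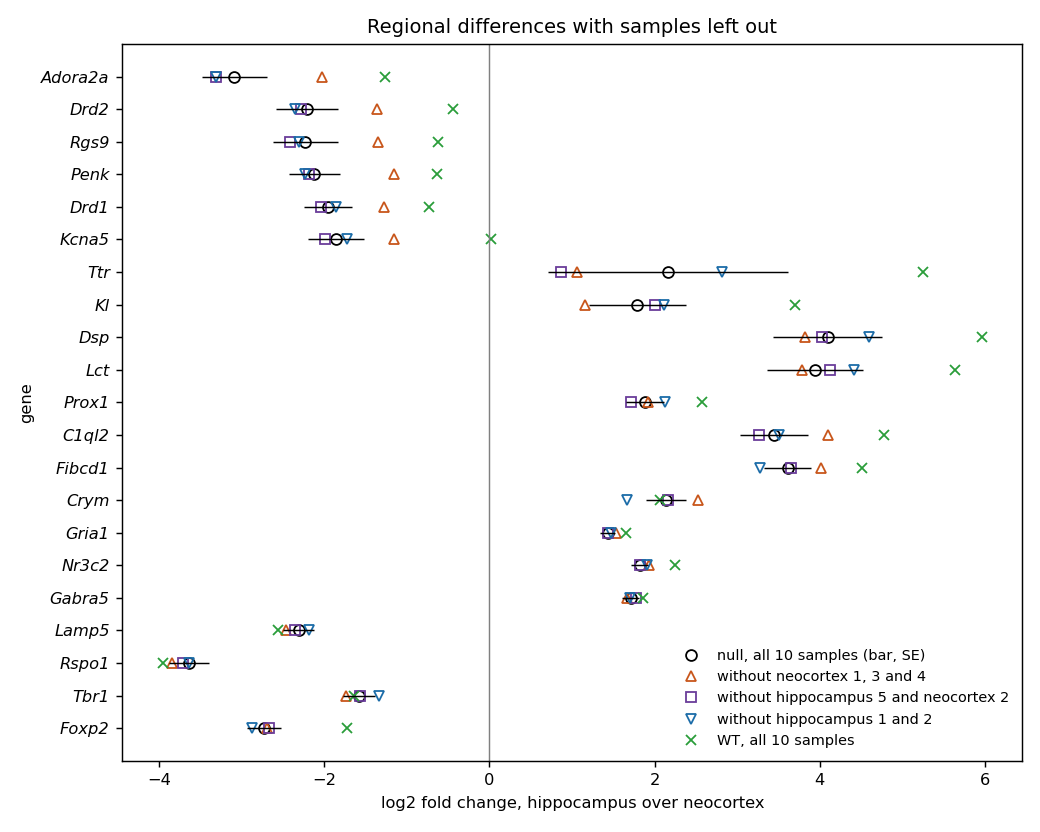
The log2 fold change of hippocampus over neocortex (x axis) is shown for 21 genes (y axis) in all 10 miR-324-null samples (circle, with SE), without neocortex 1, 3 and 4 (triangle), without hippocampus 5 and neocortex 2 (square), without hippocampus 1 and 2 (inverted triangle) and in the 10 WT samples (cross). Striatal genes move towards 0 without neocortex 1, 3 and 4, which were chosen by the sum of striatal markers. *Ttr* depends on the choroid samples, and *Gria1*, *Gabra5*, *Lamp5* and *Rspo1* stay close to their first value.

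Most regional calls of the miR-324-null mice were also calls in WT. WT hippocampus and WT neocortex share no sample with the miR-324-null comparison, so their log2 fold changes can be set beside it. Over the 14777 genes tested in both genotypes, these values had a Pearson r of 0.877 and a Spearman rho of 0.797, a description across genes, which are not independent replicates. In WT, 5378 of 14894 genes (36.1%) were called, and 3342 genes were called in both genotypes, 81.0% of the miR-324-null calls and 62.1% of the WT calls. Of these 3340 had the same direction. Past 2-fold, 577 genes were called in both, 76.7% of the 752 and 67.2% of the 858 in WT, all in the same direction. Of the 10 genes highest in the miR-324-null hippocampus all 10 were also called in WT, and all 10 had a smaller log2 fold change in the miR-324-null mice than in WT. *Dsp* was at 4.10 against 5.96 in WT, *Lct* at 3.94 against 5.64, and *Spink8*, a CA1 serine protease inhibitor, at 3.87 against 5.34. In miR-324-null neocortex *Fibcd1* ranged over 7.87 to 23.2 CPM and in WT neocortex over 5.16 to 7.66 CPM, and the hippocampus levels of the 2 genotypes overlapped. None of the 10 passed the test of a genotype by region interaction, where their smallest adjusted p was 0.775. The 10 genes lowest in the miR-324-null hippocampus were all called in WT as well, and 6 had a smaller difference in miR-324-null mice. None of these passed the interaction test either (smallest adjusted p = 0.88).

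Some genes passed 2-fold in one genotype and were not called in the other. Of 60 genes past 2-fold in miR-324-null mice and tested but not called in WT, 47 were lower in the hippocampus and 7 were in the striatum list. Among the others was *Trh* (thyrotropin-releasing hormone), named after its values were seen, at 0.234, 0.153, 0.738, 0.372 and 0.202 CPM in hippocampus and 2.42, 5.4, 1.66, 3.46 and 0.597 CPM in neocortex. Its log2 fold change was -2.92, with -1.57 in WT. *Slc5a7*, the choline transporter of cholinergic neurons, named in the same way, stood at 1.01, 0.765, 0.984, 0.521 and 1.48 CPM against 2.56, 2.22, 6.29, 2.14 and 0.759 CPM, with a log2 fold change of -1.52 and 1.14 in WT. Neocortex 3 was its highest sample, and without it the log2 fold change was -0.98 (adjusted p = 0.0797). Leaving out hippocampus 1, 2, 3 or 4 ended the call as well (adjusted p = 0.0566, 0.071, 0.0539 and 0.0659). Of 122 genes past 2-fold in WT and tested but not called in miR-324-null mice, 83 were higher in the WT hippocampus and 6 were in the choroid plexus list, where a single WT hippocampus sample reached 4810 CPM. *Gpr101*, an orphan receptor also named after its values were seen, was at 9.9, 15.5, 8, 5.36 and 4.98 CPM against 5.27, 2.32, 5.82, 8.4 and 0.325 CPM in miR-324-null mice, with a log2 fold change of 1.0 and 3.33 in WT. Its neocortex 5 value was the lowest of the group.

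The direct test of whether the regional difference depended on genotype called 3 of 15391 genes (0.0195%), all with a smaller or more negative hippocampus over neocortex difference without miR-324. The number at an unadjusted p under 0.05 was 857 (5.57%). With a transcript-length offset 1 gene passed, and with DESeq2 6 did. *Mdga1*, a membrane glycoprotein that restrains synapse formation (chr17:29827949-29970087), stood at 69, 73.3, 70.1, 71.4 and 76 CPM in miR-324-null hippocampus and 24.2, 23.1, 22.1, 25.1 and 16.9 CPM in neocortex, and over 77.4 to 86.2 CPM and 11.4 to 15.1 CPM in the WT tissues, so that the genotypes did not overlap in either region. Its regional log2 fold change was 1.70 without miR-324 and 2.66 in WT, and the difference between them was -0.97 (SE 0.12, adjusted p = 0.000687). *Ndst4*, a heparan sulfate sulfotransferase (chr3:125404076-125728899), was at 17.5, 17.1, 38.7, 27 and 27.3 CPM in miR-324-null hippocampus and 13.3, 18.5, 19.3, 9.01 and 4.72 CPM in neocortex. In WT neocortex it ranged over 1.06 to 3.62 CPM, below every miR-324-null neocortex sample, and in WT hippocampus over 28.1 to 33.3 CPM. The difference of the regional log2 fold changes was -3.07 (SE 0.47, adjusted p = 0.0163). Its regional call in miR-324-null mice (log2 fold change 0.99, SE 0.33, adjusted p = 0.0425) was kept only without hippocampus 1, hippocampus 2, neocortex 2 or neocortex 3, and leaving out hippocampus 3, 4 or 5 or neocortex 1, 4 or 5 gave adjusted p = 0.101, 0.0721, 0.0735, 0.0711, 0.098 and 0.0537. DESeq2 and a transcript-length offset did not call it either (adjusted p = 0.062 and 0.0534). *Sema5b*, an axon guidance semaphorin (chr16:35541145-35664732), was lower in the miR-324-null hippocampus, at 12.9, 11.5, 13.2, 11.5 and 13.9 CPM against 14.7, 17.1, 22.7, 19.5 and 17.4 CPM, and higher in that of WT (-0.53 against 0.34 on the log2 scale), with a difference of -0.88 (SE 0.14, adjusted p = 0.0242).

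Neocortex 5 was the lowest of its group for *Mdga1* and *Ndst4*, and it also had the lowest striatum, CA2 and meningeal sums. The CA2 list summed to 129, 138, 121, 128 and 72 CPM in miR-324-null neocortex 1 to 5 and to 69.4 to 91.6 CPM in WT neocortex. The dentate list gave 287 to 329 CPM and 265 to 323 CPM. Whether the tissue taken differed between the genotypes was not tested. Without neocortex 5, 20 genes passed the interaction test, 5 with a larger and 15 with a smaller difference in miR-324-null mice. Without WT neocortex 1, 2 or 5 in turn, 1 gene passed each time. The other genes among the 10 smallest p of this test did not pass. *Igfbp4*, an insulin-like growth factor binding protein, was higher in the miR-324-null hippocampus (0.40) and lower in that of WT (-0.33), with an adjusted p of 0.0951 for the difference, and with *Sema5b* it was one of 2 genes called in both genotypes in opposite directions. For *Sema5b* this depended on the fit, since a transcript-length offset ended its call in miR-324-null mice (log2 fold change -0.41, adjusted p = 0.108). The miR-324-null call of *Igfbp4* was lost in 3 edgeR fits with fewer samples. Its log2 fold change was 0.26 without neocortex 1, 3 and 4 (adjusted p = 0.287) and 0.32 without hippocampus 1 and 2 (adjusted p = 0.081). Without hippocampus 5 and neocortex 2 it was 0.39 (adjusted p = 0.0534). *Doc2b*, a calcium sensor of vesicle release, was at 98.7, 99, 103, 97.8 and 122 CPM in miR-324-null hippocampus and 39.5, 20.9, 27.2, 34.9 and 11.9 CPM in neocortex, against 7.97 to 19.1 CPM in WT neocortex (interaction adjusted p = 0.454). *Ust*, a uronyl sulfotransferase, and *Prkcd*, a protein kinase C, had a smaller difference without miR-324 and *Dr1*, a repressor of transcription, a larger one (adjusted p = 0.23, 0.327 and 0.454). *Kcna5*, described above beside the striatal markers, was also among the 10 (adjusted p = 0.454).

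**Figure D5:**
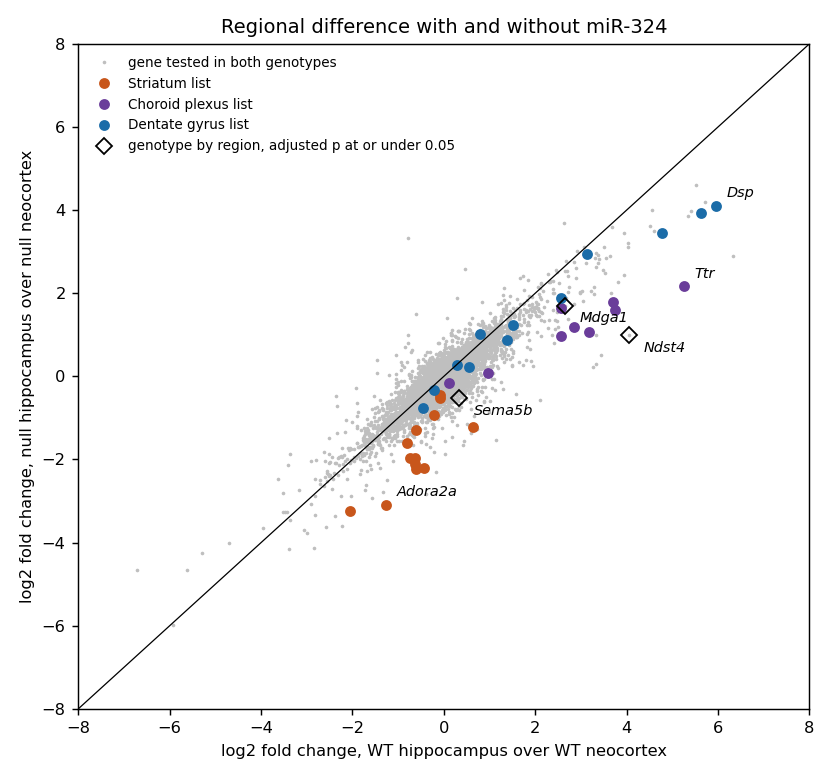
Each grey point is one of the 14777 genes tested in both genotypes, by its log2 fold change of hippocampus over neocortex in WT (x axis) and in miR-324-null mice (y axis), with the line of equal values. Striatum list genes (orange) and choroid plexus list genes (purple) lie below the line, dentate list genes are blue, and the 3 genes of the interaction (diamonds) lie below it.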

How the data were processed

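Poly(A) mRNA of hippocampus and cerebral cortex was sequenced from stranded libraries, 5 per group. The authors quantified transcripts with kallisto, and each deposited table holds an estimated count, a TPM value and an effective transcript length per transcript, with no pooling of samples. The paper's methods name the mouse build GRCm38, while the build field of the submitters' processing notes says GRCh38. The transcript IDs are mouse, and 113580 of 115270 matched GENCODE vM21, giving 35580 genes. Transcripts without a match held 0.509% to 0.556% of the counts and were left out. Deposited estimated counts were summed per gene and rounded to whole numbers, and TPM was used only for shares between subunits.

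Genes were filtered with filterByExpr, normalized with TMM and tested with edgeR 4.0.16 (R 4.3.3, limma 3.58.1) by its quasi-likelihood test, and p-values were adjusted by Benjamini and Hochberg's method across every gene of a fit, with 0.05 as threshold. The regional fit held the 10 miR-324-null samples, the WT fit the 10 WT samples, and the interaction all 20. On simulated counts with 200 genes changed by a log2 of 1 among 14912, the regional test recovered 83% of them, and 4.6% of its calls were unchanged genes. Python 3.11.15, pandas 2.3.3, numpy 2.4.6 and matplotlib 3.10.9 were used for tables and plots. Each sum of counts per sample limits precision for low genes by counting error.

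The comparison and the gene lists were chosen with earlier results of these data known, so no p-value is given over a list alone, and an exact permutation test planned for the marker sums is not reported. Genes named in the text are the 10 with the largest log2 fold change in each direction among called genes with non-overlapping groups and a mean of at least 5 CPM in the higher region, up to 4 called members of each list with the largest difference and others needed to describe a list, and genes among the 10 smallest p of the interaction. *Trh*, *Slc5a7*, *Gpr101* and *Cdhr1* were added after their values were seen. Some genes that this rule selects are not reported here. Replicates are separate samples by their labels, and whether one animal gave samples of both regions is not stated. The alternatives were DESeq2 1.42.0, its size factors in edgeR, other filters on low counts, a transcript-length offset, a replicate block, all 20 samples in one fit, marker scores as covariates, and each sample left out in turn. Leaving out groups of samples high in striatal or choroid plexus markers, or the 2 hippocampus samples lowest in dentate markers, was chosen after seeing the data. No column of per-sample values was left without a sample.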

Additional observations from a re-analysis of the deposited data

Results flagged for a closer look

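Within each group of 5 miR-324-null samples, the highest or lowest sample was set against the other 4 for every named gene and every marker list sum. Of 322 such groups 32 had a sample standing apart by Dixon's criterion, where chance gives about 5%. The values are CPM, with the range of the other 4 samples.

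In miR-324-null hippocampus 1, the value stood apart for *Cacng8* (29.8, others 36.2 to 37.8), *Htr5b* (8.73, others 4.24 to 5.54), *Iyd* (1.09, others 2.58 to 2.83) and *Syt6* (12.5, others 5.78 to 7.49). In miR-324-null hippocampus 2, the value stood apart for *Hs3st4* (116, others 81.7 to 90.7). In miR-324-null hippocampus 3, the value stood apart for *Pou3f1* (49, others 27.6 to 33.3) and the Activity-induced early gene list (1007, others 611 to 708). In miR-324-null hippocampus 5, the value stood apart for *Doc2b* (122, others 97.8 to 103), *Htr4* (13.1, others 9.96 to 10.4), *Kl* (71.8, others 16.5 to 19.9), *Ttr* (3753, others 25.8 to 110), the Choroid plexus list (4072, others 137 to 215), the Mature oligodendrocyte list (4704, others 5816 to 6118) and the Endothelial and pericyte list (555, others 456 to 472).

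In miR-324-null neocortex 1, the value stood apart for *Mrpl10* (53, others 46.5 to 47.4). In miR-324-null neocortex 2, the value stood apart for *Cdhr1* (32, others 1.25 to 7.01), *Kl* (23.1, others 2.77 to 7.47), *Ttr* (758, others 17.3 to 50.8), the Choroid plexus list (942, others 105 to 159) and the Mature oligodendrocyte list (8265, others 5558 to 6137). In miR-324-null neocortex 3, the value stood apart for *Rasgef1c* (39.9, others 27.9 to 29.9) and the Endothelial and pericyte list (478, others 516 to 531). In miR-324-null neocortex 4, the value stood apart for the NMDA receptor list (1261, others 1085 to 1129). In miR-324-null neocortex 5, the value stood apart for *Bcl11b* (54.7, others 71.5 to 76.1), *Crhr1* (30.8, others 23 to 24.8), *Dkkl1* (23.1, others 17 to 18.2), *Homer1* (337, others 126 to 183), *Hs3st4* (60, others 48.3 to 51.4), *Pvalb* (73.1, others 44.4 to 50.6), *Rspo1* (17.9, others 8.89 to 11.3), *Tbr1* (179, others 124 to 127) and the CA2 field list (72, others 121 to 138).

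The regional difference itself differed between the genotypes for *Mdga1* (-0.97, null minus WT on the log2 scale), *Ndst4* (-3.07) and *Sema5b* (-0.88), by the interaction test of edgeR, with adjusted p = 0.000687, 0.0163 and 0.0242. The miR-324-null difference was the smaller in *Mdga1* and *Ndst4* and of the opposite sign in *Sema5b*. The values of each sample are given above.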

How the results depend on the processing

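Of the 127 genes named, 121 were called, and all 127 kept their direction and their side of the threshold with DESeq2's size factors. The count of regional calls (4125) became 2056 without neocortex 1, 3 and 4 and 616 with the striatum score as a covariate, where calls past 2-fold fell to 409. That score does not overlap between the regions, so the covariate and the region cannot be told apart. Leaving out 1 sample gave 3444 to 4145 regional calls, 711 to 850 past 2-fold and 4799 to 5411 in WT. The interaction, with 3 genes, gave 6 with DESeq2, 1 with the transcript-length offset, and 1 to 20 without 1 sample. The cause of these changes was not tested.

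With the striatum score as a covariate the direction turned for *Kcna5* (0.06), *Penk* (0.07), *Tac1* (0.76), *Drd2* (0.17), *Rgs9* (0.19), *Pde10a* (0.43), *Ttr* (-2.85), *Kl* (-0.10) and *Slc5a7* (1.15). *Ttr* turned to -0.32 with the choroid plexus score and ranged from -1.48 (without hippocampus 5) to 4.51 over the fits that left out 1 sample. *Wfs1*, not called, turned negative without hippocampus 3, hippocampus 4 and neocortex 5, with a range of -0.13 to 0.31 over such fits. *Cdhr1*, not called, turned to 0.56 without hippocampus 5 and neocortex 2, to 0.64 without neocortex 2 (-0.85 to 0.64 over such fits) and to 0.09 with the replicate block.

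Same-numbered samples of the 2 regions did not deviate together throughout: their correlations were 0.204, -0.04, 0.143, 0.228 and 0.0626 in miR-324-null mice. For 2 of 5 numbers, the samples of the 2 regions were each other's best match. The numbers were not taken as pairs because the labels do not say that they mark the same mouse. These correlations do not settle whether they do. With the replicate block, 4041 regional genes were called, 748 past 2-fold, and 0 in the interaction, where 794 had an unadjusted p under 0.05. Depth limits the genes below 1 CPM in a region, such as *Iyd* and *Trh*, where a fold change depends on few counts.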

Other observations

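*Cdhr1*, a cadherin of olfactory mitral cells and photoreceptors, was chosen after its values were seen. It stood at 6.47, 6.81, 5.54, 6.7 and 8.21 CPM in miR-324-null hippocampus 1 to 5 and at 4.39, 32, 7.01, 4.78 and 1.25 CPM in miR-324-null neocortex 1 to 5, with 5.87 to 9.35 CPM in WT hippocampus and 1.08 to 2.26 CPM in WT neocortex. Neocortex 2 lay above every other sample of the 4 groups, and this sample was also the highest neocortex sample in the choroid plexus list (942 CPM) and the mature oligodendrocyte list (8265 CPM). The regional difference was log2 fold change -0.56, SE 0.62, adjusted p = 0.546 in miR-324-null mice and 2.11 in WT.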
